A study of Homo sapiens with 12 samples.

Results

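*CYBA*, *DUOX1* and *DUOX2* are genes of the NADPH oxidases, and their transcript levels were followed in 12 RNA-seq libraries. The 3 genes were picked by name from the 30358 genes that the count tables of both cell lines list, joined by Ensembl identifier. *CYBA* was picked because it had the largest rise after PTDSS1i in KYSE30, so its KYSE30 values are given as a description, with no test, and the same was done for *DUOX1* and *DUOX2*. PTDSS1i is the small-molecule PTDSS1 inhibitor DS55980254, and PTDSS1 makes phosphatidylserine, a membrane phospholipid. The groups were KYSE30 with DMSO, KYSE30 with 100 nM PTDSS1i, U138MG with DMSO and U138MG with 100 nM PTDSS1i, all for 48 h, with 3 cultures in each of the 4 groups. The labels give every culture as WT, KYSE30 as an esophageal squamous cell carcinoma line and U138MG as glioblastoma. DMSO is the vehicle that carries the inhibitor. KYSE30 is batch1 and U138MG is batch2 in the labels, so line and batch cannot be told apart.

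Poly-A RNA was sequenced, and the libraries hold from 18800932 to 26514658 counts, of which 3 counts correspond to between 0.113 and 0.160 counts-per-million (CPM). Values are CPM of the library total, or normalized CPM after edgeR's TMM scaling, which corrects for differences in RNA composition. Within each line PTDSS1i was tested against DMSO over all genes by the quasi-likelihood test of edgeR, with p-values adjusted by the Benjamini-Hochberg method, and means are given with the SD of 3 libraries. The libraries labelled U138MG went against their label in epithelial and most glial markers. In DMSO they had 463 CPM of *CDH1* and 1470 CPM of *KRT5*, both epithelial, and no count of the glial genes *OLIG2* and *S100B*, while of the other glial list genes *VIM* had 0.206 CPM, *NES* 0.556, *GFAP* 2.36 and *SOX2* 38.9. The libraries labelled KYSE30 had 514 CPM of *CDH1* and 98.2 CPM of *TP63*, 0.0608 CPM of *KRT5* and 99.4 CPM of *SOX2*. Of 7 mesenchymal genes also read in DMSO, *SPARC* had 712.5 CPM and *COL1A1* 54.5 in the libraries labelled U138MG. In KYSE30 they had 4.55 and 10.7 CPM. Of the other mesenchymal genes, *COL3A1* had 2.62 CPM in the libraries labelled U138MG and the rest 0.108 or less. The second line is therefore called the libraries labelled U138MG throughout. RNA came from whole cultures, so fewer cells of a type and less RNA per cell cannot be told apart.

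NADPH oxidases pass electrons from NADPH across a membrane to oxygen and so make superoxide or hydrogen peroxide. *CYBA* encodes p22phox, the small membrane partner that stabilises the catalytic subunits NOX1, NOX2 (gene *CYBB*), NOX3 and NOX4. NOX5 and the dual oxidases do not need p22phox. *DUOX1* and *DUOX2* encode the dual oxidases, which release hydrogen peroxide at epithelial surfaces and in the thyroid, and which leave the endoplasmic reticulum with the maturation factors encoded by *DUOXA1* and *DUOXA2*. In phagocytes NOX2 is switched on by cytosolic subunits, among them p47phox and p40phox (*NCF1* and *NCF4*), and by Rac, while NOXO1 and NOXA1 are the organiser and the activator of NOX1.

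*CYBA* (ENSG00000051523) lies on the minus strand of chromosome 16, from 88643283 to 88651152 in GRCh38 by GENCODE 29, where none of its exons overlaps another gene. In KYSE30, DMSO replicates 1 to 3 had 17, 9 and 11 counts, or 0.840, 0.479 and 0.488 CPM. PTDSS1i replicates 1 to 3 had 434, 427 and 513 counts, or 19.3, 21.2 and 20.3 CPM. All PTDSS1i libraries lay above all DMSO libraries, as was the case for 32.1% of the 16389 tested KYSE30 genes. The mean was 0.584 ± 0.214 normalized CPM in the DMSO libraries and 21.1 ± 0.775 in the PTDSS1i libraries (SD of 3 libraries), a log2 fold change of 5.17 with a standard error of 0.16. In DMSO only 5.06% of tested genes had a lower mean than *CYBA*, and in PTDSS1i 53.8% did. With each library left out in turn, the log2 fold change lay between 5.01 and 5.50, and with library total scaling it was 5.06. Among the 11415 genes averaging 5 CPM or more, the next largest log2 fold changes were 4.51 for *SPRR1A*, 4.12 for *TP53INP2* and 4.01 for *NEURL3*.

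Among the U138MG-labelled libraries, which did not serve to choose *CYBA*, its counts were near the limit of detection. DMSO replicates 1 to 3 had 8, 6 and 9 counts, or 0.418, 0.269 and 0.422 CPM, and PTDSS1i replicates 1 to 3 had 19, 23 and 15 counts, or 0.794, 1.01 and 0.566 CPM. All 3 PTDSS1i libraries lay above all 3 DMSO libraries, as was so for 35.5% of the 17666 tested genes in that direction. The log2 fold change was 1.23 (SE 0.43, edgeR adjusted p = 0.0131), against 33.9% of tested genes higher at an adjusted p under 0.05. *CYBA* passed the low-count filter here through the PTDSS1i libraries alone, 3 of which and 0 of the DMSO libraries exceeded it, so that a gene entering the test in this way had to differ. The call was lost without U138MG DMSO replicate 2 (log2 fold change 1.04, edgeR adjusted p = 0.0700) and without U138MG PTDSS1i replicate 2 (log2 fold change 1.03, edgeR adjusted p = 0.0809). The 2 tables were normalized separately. With that limit, the mean level of *CYBA* was lowest in U138MG DMSO at 0.352 ± 0.0826 normalized CPM, followed by KYSE30 DMSO, by U138MG PTDSS1i at 0.831 ± 0.230 and by KYSE30 PTDSS1i (SD of 3 libraries each). The KYSE30 DMSO and U138MG PTDSS1i libraries overlapped in this order, whereas KYSE30 PTDSS1i stood apart from all other groups.

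*DUOX1* (ENSG00000137857) spans 45129933 to 45165576 on the plus strand of chromosome 15. Of its 8784 exonic bases, 560 also lie in exons of *DUOXA1* or *AC051619.6* on the other strand, where reads of libraries that do not mark strand could belong to either gene. Within the U138MG-labelled libraries it went the other way from *CYBA*. DMSO replicates 1 to 3 had 46, 56 and 57 counts, or 2.40, 2.51 and 2.67 CPM, and PTDSS1i replicates 1 to 3 had 15, 18 and 19 counts, or 0.627, 0.788 and 0.717 CPM. Every PTDSS1i library lay below every DMSO library, as was so for 35.9% of tested genes in that direction. The mean fell from 2.41 ± 0.117 to 0.749 ± 0.0857 normalized CPM (SD of 3 libraries), a log2 fold change of -1.68 (SE 0.27, edgeR adjusted p = 4.03e-06). At an adjusted p under 0.05, 33.6% of tested genes were lower, and 11.6% with a log2 fold change under -1 as well. Leaving out each library in turn gave edgeR adjusted p-values of at most 6.80e-05. The 6 epithelial markers read in the same libraries summed to between 6870 and 7667 CPM in DMSO and between 1716 and 1836 in PTDSS1i. Their means in DMSO and PTDSS1i were 4861 and 458 CPM for *KRT15*, 1470 and 526 for *KRT5*, 463 and 269 for *CDH1*, 276 and 194 for *TP63*, 248 and 348 for *EPCAM* and 0.198 and 0.0662 for *KRT14*, and their part in the level of *DUOX1* was not tested. In KYSE30 the DMSO libraries had 2, 3 and 4 counts of *DUOX1* and the PTDSS1i libraries 5, 3 and 1. The groups overlapped, and the ratio of PTDSS1i to DMSO was 0.977 with a 95% interval from 0.344 to 2.78 that covers counting error alone. The level of *DUOX1* was thus highest in U138MG DMSO, then in U138MG PTDSS1i, and the overlapping KYSE30 groups came last at 0.140 ± 0.0375 in DMSO and 0.142 ± 0.0963 normalized CPM in PTDSS1i (SD of 3 libraries).

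*DUOX2* (ENSG00000140279), from 45092650 to 45114344 on the minus strand of chromosome 15, was at the edge of detection everywhere. KYSE30 DMSO replicates 1 to 3 had 2, 3 and 4 counts and PTDSS1i replicates 1 to 3 had 3, 2 and 8. The ratio of PTDSS1i to DMSO was 1.41 with a 95% counting interval from 0.558 to 3.74, and it was 0.863 when PTDSS1i replicate 3 was left out. A change in either direction was not detectable at this depth. For the U138MG-labelled libraries the only count was 1 in DMSO replicate 3, so that *DUOX2* was at most 0.157 CPM in each of these libraries, the level of 3 counts in the smallest of them, and no fold is given. *DUOX1* and *DUOX2* in KYSE30, and *DUOX2* in the libraries labelled U138MG, did not pass the low-count filter.

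**Figure D1:**
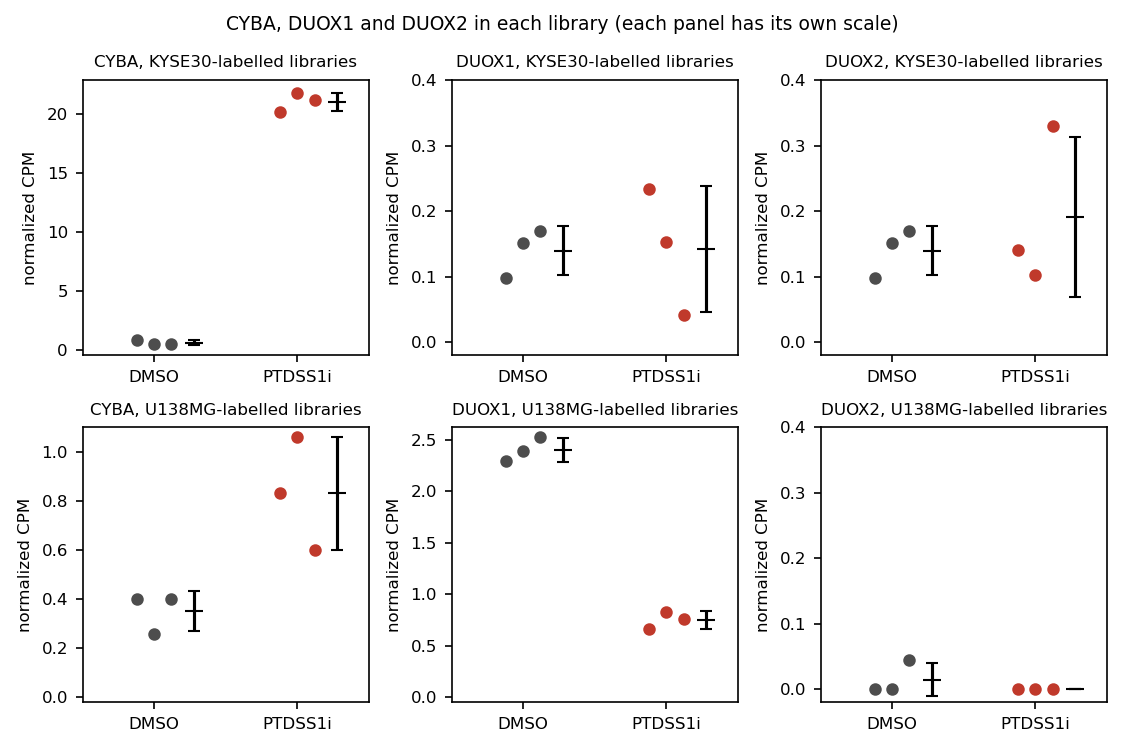
Normalized CPM (vertical axes, each panel with its own scale) of *CYBA*, *DUOX1* and *DUOX2* in DMSO and PTDSS1i libraries, KYSE30 in the upper row and the libraries labelled U138MG in the lower row, with points for libraries and bars for the mean and SD of 3 libraries. *CYBA* is near 21.1 in KYSE30 PTDSS1i and 1.06 or less in every library of the other groups, while *DUOX1* falls from 2.41 to 0.749 in the lower row.

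The stretches of 250 bases before the RefSeq transcript starts of *CYBA* and of *DUOX1* are printed because these are the members whose levels moved. They were read from RefSeq on GRCh38.p14 at chr16:88651054-88651303, minus strand, and chr15:45129744-45129993, plus strand, and both run 5′ to 3′ in the direction of the gene. GENCODE 29 places the outermost start of both genes inside these stretches. Capitals mark matches on either strand to any of 11 motifs searched.
CYBA: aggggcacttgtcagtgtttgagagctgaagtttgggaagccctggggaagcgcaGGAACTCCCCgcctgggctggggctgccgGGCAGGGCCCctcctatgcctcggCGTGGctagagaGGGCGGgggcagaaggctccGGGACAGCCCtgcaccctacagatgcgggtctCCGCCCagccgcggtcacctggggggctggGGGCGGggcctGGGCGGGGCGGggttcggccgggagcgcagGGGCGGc
DUOX1: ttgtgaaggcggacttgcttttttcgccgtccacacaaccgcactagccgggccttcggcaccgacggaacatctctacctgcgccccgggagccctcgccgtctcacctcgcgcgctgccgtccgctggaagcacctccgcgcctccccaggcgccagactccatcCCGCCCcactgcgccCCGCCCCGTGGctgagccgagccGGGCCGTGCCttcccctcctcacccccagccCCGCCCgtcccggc
GGGCGG, the SP1 motif, was matched 6 times in the *CYBA* stretch, where the matches from -37 to -32 and from -32 to -27 share a base, and 3 times in that of *DUOX1*. It occurs in 42.6% of the 35116 promoter stretches of the same length. The NF-kB pattern, in 18.9% of stretches, was matched 3 times in *CYBA* and once in *DUOX1*, and CCACG, part of the ER stress element and present in 33.5% of stretches, was matched once in each. The remaining 8 motifs had no match in either stretch. They were TGANTCA (AP-1, in 6.57% of stretches), TGACGTCA (CRE, 1.65%), TGATGNAA (amino acid response, 3.14%), CCGGAAG (ETS, 8.52%), GAGGAAGT (PU.1, 2.17%), the interferon response pattern (3.02%), CACGTG (E-box, 6.34%) and TGACNNNGC (antioxidant response, 10.9%). *CYBA* and *DUOX1* were 73.6% and 72.8% G or C. A match says only that these letters are there.

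A close neighbour of *CYBA* rose in both lines. *MVD* (ENSG00000167508), which encodes mevalonate diphosphate decarboxylase of the cholesterol pathway, lies on the same strand and ends 783 bases before the start of *CYBA*. In KYSE30 it had 1753, 1248 and 1603 counts in DMSO and 12786, 10702 and 13540 in PTDSS1i. Its log2 fold change was 2.97 (SE 0.10, edgeR adjusted p = 6.42e-09). Across the libraries labelled U138MG it rose from 1199, 1417 and 1413 counts to 6133, 5771 and 6866, a log2 fold change of 2.14 (SE 0.038, edgeR adjusted p = 4.86e-27). As a percentage of *MVD* counts, *CYBA* counts were 0.970, 0.721 and 0.686 in KYSE30 DMSO and 3.39, 3.99 and 3.79 in KYSE30 PTDSS1i. In the libraries labelled U138MG the percentage was 0.667, 0.423 and 0.637 in DMSO and 0.310, 0.399 and 0.218 in PTDSS1i. Relative to *MVD*, *CYBA* was larger in every KYSE30 PTDSS1i library than in any other library. As *CYBA* was chosen for the largest rise in KYSE30, a rise of its percentage there was fixed by that choice. The percentage was smaller in every U138MG PTDSS1i library than in any U138MG DMSO library. Whether transcripts that run on from *MVD* contributed to the counts of *CYBA* was not tested, since the counts are per gene.

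**Figure D2:**
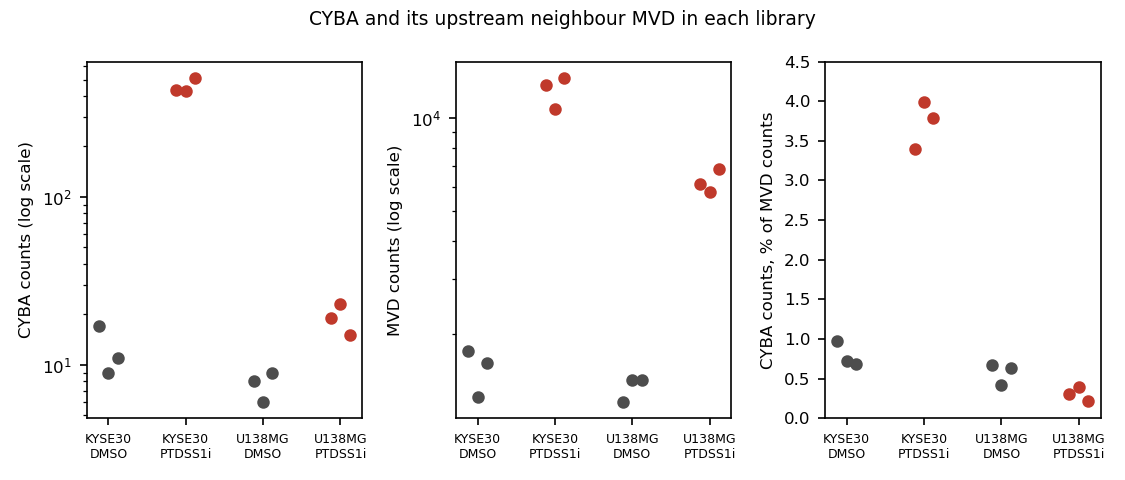
Counts of *CYBA* (left) and of *MVD* (middle), both on log axes, and *CYBA* counts as a percentage of *MVD* counts (right), with a point for each of the 12 libraries, 3 in each group. *MVD* rises in both lines, and the percentage lies between 3.39 and 3.99 in KYSE30 PTDSS1i and under 1 in the other groups.

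Within 20 kb of *CYBA*, *SNAI3-AS1* rose in both lines, with log2 fold changes of 1.87 and 1.60 (edgeR adjusted p = 1.46e-10 and 5.15e-09). *ZC3H18*, which encodes a zinc finger RNA-binding protein, fell by 0.48 on the log2 scale in KYSE30 (edgeR adjusted p = 3.92e-07). Its log2 fold change was -0.12 in the libraries labelled U138MG, where the call (edgeR adjusted p = 0.0129) was lost with DESeq2 (adjusted p = 0.0535), without a low-count filter (0.119), without U138MG DMSO replicate 3 (0.0565) and without PTDSS1i replicate 1 (0.114). *IL17C*, an epithelial cytokine gene, had at most 4 counts in any library. On chromosome 15 the dual oxidase genes and their maturation factors share a cluster in which *DUOX1* and *DUOXA1* overlap at their starts and *DUOX2* and *DUOXA2* share 24 bases of exon. The neighbour *SHF*, 1638 bases past the end of *DUOX1*, had 7, 9 and 8 counts in U138MG DMSO and 1, 1 and 4 in PTDSS1i, too few to pass the filter. *SORD*, 15465 bases from *DUOX2* and encoding sorbitol dehydrogenase, fell in both lines, with log2 fold changes of -1.14 and -0.38 (edgeR adjusted p = 7.95e-12 and 6.26e-09).

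The catalytic subunits that pair with p22phox had 19 counts or fewer in each of the 12 libraries. *CYBB*, the gene of NOX2, had 6, 5 and 9 counts in KYSE30 DMSO and 3, 3 and 8 in KYSE30 PTDSS1i, under the filter. Among the U138MG-labelled libraries *CYBB* had 15, 13 and 12 counts in DMSO and 19, 5 and 12 in PTDSS1i, a log2 fold change of -0.24 (SE 0.45, edgeR adjusted p = 0.656). *NOX1* had at most 2 counts in any library of either line. *NOX3* and *NOX4* had no count in the libraries labelled U138MG, which allows up to 0.157 CPM in the smallest of them, and *NOX5* had at most 2 counts. *NOX3*, *NOX4* and *NOX5* are not listed in the KYSE30 table, which lists genes with at least 1 count. None of the 5 catalytic genes passed the filter in KYSE30, and 1 did in the libraries labelled U138MG.

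*NOXO1*, the organiser of the NOX1 complex, rose in KYSE30 from 2.62, 1.91 and 1.99 CPM to 10.9, 12.5 and 10.3 CPM. Its log2 fold change was 2.47 (SE 0.14, edgeR adjusted p = 2.45e-12). Within the U138MG-labelled libraries the DMSO libraries had 5.69, 5.92 and 7.63 CPM and the PTDSS1i libraries 5.14, 5.82 and 5.81 CPM, groups that overlapped (log2 fold change -0.05, edgeR adjusted p = 0.758). The difference between the lines was -2.56 on the log2 scale (edgeR adjusted p = 6.70e-12 for the interaction of line and treatment, which 49.9% of 18405 genes passed). In GENCODE 29, 2133 of the 2159 exonic bases of *NOXO1* also lie in exons of *TBL3* on the other strand, and the library kit does not mark strand. By that annotation, reads in the shared bases could belong to either gene. How the authors' counting assigned such reads, and with which annotation, is not known. *TBL3* itself had log2 fold changes of -0.29 in KYSE30 and 0.15 in the libraries labelled U138MG.

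*NCF1*, encoding the organiser p47phox, had 1 count in each KYSE30 DMSO library, at the limit of 3 counts for the group, and 6 in each PTDSS1i library. It has near-identical copies, *NCF1B* and *NCF1C*, with which reads may have been split, and it did not pass the filter. U138MG DMSO replicates had 2, 3 and 2 counts of *NCF1* and PTDSS1i replicates 4, 0 and 0. *NCF4*, encoding p40phox, had log2 fold changes of 0.13 and -0.05 with standard errors of 0.30 and 0.15 in KYSE30 and in the libraries labelled U138MG (edgeR adjusted p = 0.728 and 0.771), and its groups overlapped in both. *NOXA1*, the activator of NOX1, had 21.2 ± 3.98 and 24.4 ± 1.51 normalized CPM in KYSE30 DMSO and PTDSS1i (SD of 3 libraries), a log2 fold change of 0.20 (edgeR adjusted p = 0.111). With the replicate number as a block, the *NOXA1* value was 0.21 and passed (edgeR adjusted p = 0.0199 with the pairing), and it also passed without KYSE30 DMSO replicate 2 (0.36, edgeR adjusted p = 9.77e-04), without a low-count filter (0.0458) and with both lines fitted together (0.0323). With library total scaling the KYSE30 log2 fold change of *NOXA1* was 0.098. For the U138MG-labelled libraries *NOXA1* had a log2 fold change of -0.08 (edgeR adjusted p = 0.413), which was -0.23 and called with library total scaling (edgeR adjusted p = 0.0208). *DUOXA1* had 4, 4 and 5 counts in KYSE30 DMSO and 5, 4 and 13 in PTDSS1i, and at most 2 in any library labelled U138MG. *DUOXA2* had 1 count in all of the latter and is not listed for KYSE30.

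*CYBC1*, whose product is a chaperone of the NOX2 and p22phox pair, was expressed in both lines. In KYSE30 its 171 ± 2.59 normalized CPM with DMSO and 186 ± 0.649 with PTDSS1i (SD of 3 libraries) gave a log2 fold change of 0.12 (edgeR adjusted p = 0.0365), a call that was lost with library total scaling (0.014, adjusted p = 0.798), with upper-quartile scaling (adjusted p = 0.0803), without a low-count filter (adjusted p = 0.125) and when any library except KYSE30 DMSO replicate 1 was left out (adjusted p up to 0.107). Across the libraries labelled U138MG *CYBC1* had a log2 fold change of 0.15 (edgeR adjusted p = 0.0731), and 0.0015 with library total scaling. It was called without a low-count filter, with both lines fitted together and without U138MG DMSO replicate 2 (edgeR adjusted p = 0.0364, 0.0305 and 0.0425). *SH3PXD2B*, encoding the organiser-like scaffold TKS4, rose in the libraries labelled U138MG from 40.3 ± 1.32 to 88.6 ± 5.06 normalized CPM (SD of 3 libraries), a log2 fold change of 1.14 (edgeR adjusted p = 8.30e-18), and had 0.11 in KYSE30 (edgeR adjusted p = 0.307, and 0.0459 without KYSE30 DMSO replicate 1). *SH3PXD2A*, encoding TKS5, rose by 0.51 on the log2 scale in KYSE30 (edgeR adjusted p = 2.60e-06). Its 0.15 in the libraries labelled U138MG (edgeR adjusted p = 0.00422) was 0.0014 with library total scaling and 0.0024 with upper-quartile scaling, and not called in either. *POLDIP2*, a NOX4-associated protein gene, fell by 0.25 in KYSE30 (edgeR adjusted p = 3.23e-04) and had a log2 fold change of 0.06 in the libraries labelled U138MG, which turned to -0.085 with library total scaling. Of 10 organiser and maturation genes, 7 were tested in each line. With the threshold of 0.05 on the adjusted p, 3 rose and 1 fell in KYSE30, against 30.1% and 32.0% of all tested genes. In the libraries labelled U138MG 2 were higher and 0 lower, against 33.9% and 33.6%, and the medians were 0.13 and 0.06 on the log2 scale.

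Levels of different genes were compared per kb of exon, with the exon lengths of GENCODE 29. Each length is the union of all annotated exons of a gene, 3357 bases for *CYBA* and 8784 for *DUOX1*. It is not the length of the transcript that was expressed, so the order of genes depends on this choice. On this scale *CYBA* in KYSE30 had 0.174 normalized CPM per kb in DMSO and 6.27 in PTDSS1i. *NOXO1* had 0.976 in DMSO and 5.40 in PTDSS1i. *NOXA1* and *CYBC1* had 14.5 and 25.7 normalized CPM per kb in PTDSS1i. *CYBB* had 0.0470, *DUOX2* 0.0194 and *DUOX1* 0.0162 in the same group, all below *CYBA* in DMSO. Among the U138MG-labelled libraries *CYBA* had 0.105 per kb in DMSO and 0.247 in PTDSS1i, while *DUOX1* had 0.274 and 0.0852 and *CYBB* 0.138 and 0.116. By these lengths *DUOX1* was above *CYBA* per kb in DMSO and below it in PTDSS1i in that line. The *CYBA* level in DMSO there rests on 23 counts over 3 libraries, and other lengths were not tried.

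**Figure D3:**
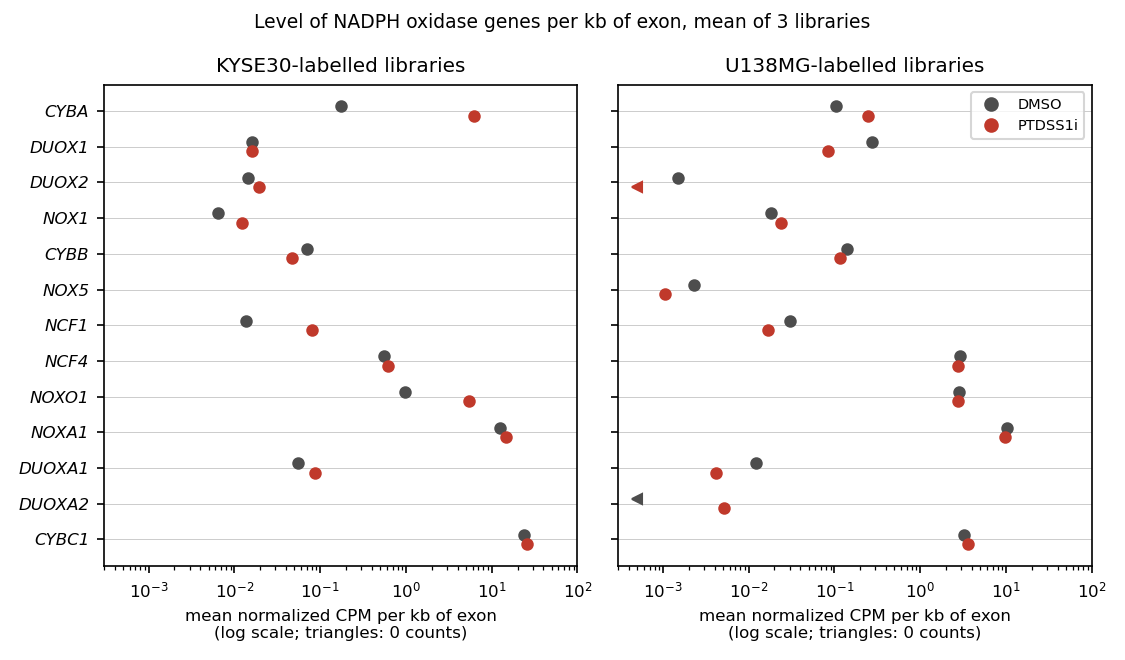
Mean normalized CPM per kb of exon (log axis) of 13 NADPH oxidase genes in KYSE30 (left) and in the libraries labelled U138MG (right), with grey points for DMSO and red points for PTDSS1i, each the mean of 3 libraries, triangles for 0 counts, points that are no firm level where a group has 3 counts or fewer (*NOX1*, *NOX5*, *DUOXA2* and others), and no point where a gene is not listed. *CYBA* and *NOXO1* move to the right in KYSE30 PTDSS1i, while *DUOX1*, *DUOX2*, *NOX1* and *CYBB* stay under 0.1 there.

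Rac and its regulators moved in both directions. Here and in the lists that follow, rose and fell mark an edgeR adjusted p under 0.05, also where no p is printed. Of 11 genes, 10 were tested in KYSE30, with 3 higher and 3 lower at the same threshold, against 30.1% and 32.0% of all tested genes. Within the U138MG-labelled libraries 11 were tested, with 6 higher and 3 lower, against 33.9% and 33.6%. The median log2 fold changes were 0.09 and 0.16, against -0.03 over all tested genes in each line. *RAC2*, the Rac of blood cells, rose from 22.1 ± 1.22 to 34.1 ± 1.85 normalized CPM in KYSE30 and from 30.3 ± 2.21 to 75.7 ± 2.20 in the libraries labelled U138MG (SD of 3 libraries), log2 fold changes of 0.63 and 1.32. *RAC1*, the widely expressed Rac that also serves NOX1, rose by 0.53 in KYSE30 and had a log2 fold change of 0.16 in the libraries labelled U138MG, which was 0.018 with library total scaling. *VAV2* and *RAC3* fell in KYSE30, with log2 fold changes of -0.54 and -0.45. *VAV3*, like *VAV2* a gene of a Rac exchange factor, fell from 160 ± 1.41 to 49.6 ± 1.98 normalized CPM in the libraries labelled U138MG (SD of 3 libraries), a log2 fold change of -1.68. *ARHGDIB*, encoding an inhibitor that holds small GTPases in the cytosol, fell there by 0.83, and *TIAM1*, another exchange factor gene, rose by 0.58.

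Genes that remove superoxide and peroxide were split as well. In KYSE30, 17 of 21 were tested, 5 higher and 8 lower, and in the libraries labelled U138MG 17 were tested, 9 higher and 5 lower, with median log2 fold changes of -0.13 and 0.25. Over all tested genes 30.1% were higher and 32.0% lower in KYSE30, and 33.9% and 33.6% in the libraries labelled U138MG. *TXNRD1*, encoding thioredoxin reductase, rose in both, from 330 ± 24.0 to 705 ± 34.3 and from 460 ± 19.4 to 1319 ± 43.5 normalized CPM (SD of 3 libraries), log2 fold changes of 1.09 and 1.52. *CAT*, encoding catalase, rose by 0.60 in KYSE30 and fell by 0.30 in the libraries labelled U138MG (edgeR adjusted p = 2.58e-13 for the interaction). In KYSE30 the peroxiredoxin genes *PRDX5* and *PRDX6* had log2 fold changes of 0.65 and -0.69. *SOD2*, encoding the mitochondrial superoxide dismutase, rose in the libraries labelled U138MG from 248 ± 4.90 to 1973 ± 66.0 normalized CPM (SD of 3 libraries), a log2 fold change of 2.99 (SE 0.037, edgeR adjusted p = 1.57e-30). The KYSE30 table has no row named *SOD2*. Its unnamed row ENSG00000112096, which GENCODE 29 calls *SOD2*, had a log2 fold change of -0.24 and was not counted in the list. The glutathione peroxidase genes *GPX1* and *GPX4* rose by 1.14 and 0.86 in the libraries labelled U138MG.

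NADPH, the electron donor of the oxidases, is made by enzymes of which 14 of 16 genes were tested in KYSE30, 7 higher and 5 lower, and 15 in the libraries labelled U138MG, 9 higher and 5 lower. Their median log2 fold changes were 0.20 and 0.25, and the shares over all tested genes were again 30.1% higher and 32.0% lower in KYSE30 and 33.9% and 33.6% in the libraries labelled U138MG. The pentose phosphate gene *PGD* rose by 0.72 in KYSE30 and by 1.03 in the libraries labelled U138MG. *ME1*, encoding malic enzyme, rose from 56.4 ± 2.10 to 112 ± 2.35 and from 126 ± 7.49 to 307 ± 4.14 normalized CPM (SD of 3 libraries), log2 fold changes of 0.98 and 1.29. *MTHFD1*, of folate metabolism, fell by 1.24 in KYSE30, and the mitochondrial folate gene *MTHFD2* rose by 0.66 there and by 0.99 in the libraries labelled U138MG. *ALDH1L2*, also of mitochondrial folate metabolism, rose by 1.46 in the latter.

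Other sources of peroxide and the haem pathway, which supplies the oxidases with their cofactor, included the following changes. *XDH*, encoding xanthine dehydrogenase, rose in the libraries labelled U138MG from 3.21 ± 0.705 to 36.0 ± 2.76 normalized CPM (SD of 3 libraries), a log2 fold change of 3.49 (edgeR adjusted p = 2.64e-19). In KYSE30 its log2 fold change was 0.34, a call (edgeR adjusted p = 0.0258) that was lost with library total scaling, with DESeq2 (adjusted p = 0.138 and 0.0546), and without KYSE30 DMSO replicate 1, PTDSS1i replicate 2 or PTDSS1i replicate 3 (adjusted p = 0.0907, 0.118 and 0.0746). *ERO1A*, encoding the ER oxidase that makes peroxide while forming disulfides, rose by 1.19 and 1.16, and *ERO1B* rose by 0.89 in the libraries labelled U138MG. *AOX1*, an aldehyde oxidase gene averaging under 5 CPM and named after its values were seen, had log2 fold changes of 1.35 and 3.73 (edgeR adjusted p = 0.00741 and 1.01e-11). Its KYSE30 groups overlapped, with 7, 5 and 11 counts in DMSO and 29, 20 and 11 in PTDSS1i. In the same libraries as *ERO1B*, *PXDN*, a haem peroxidase gene, fell by 0.33. Of the 9 genes of this group 5 and 6 were tested, with 3 higher and 0 lower in KYSE30 and 4 higher and 1 lower in the libraries labelled U138MG, and with medians of 0.82 and 1.03. The KYSE30 median was the value of *PXDN*, which had 13 counts or fewer in each library. Its groups overlapped there and it was not called (edgeR adjusted p = 0.164). All tested genes had 30.1% higher and 32.0% lower in KYSE30 and 33.9% and 33.6% in the libraries labelled U138MG. Of 9 haem genes, all tested in both lines, 3 were higher and 3 lower in each, beside the same shares over all tested genes, with medians of 0.10 in KYSE30 and -0.11 in the libraries labelled U138MG. *HMOX1*, encoding the haem-degrading oxygenase, rose by 1.11 and 1.36, and *ALAS1*, the entry enzyme of haem synthesis, by 0.72 and 0.89. *FECH*, encoding ferrochelatase, fell by 0.57 and 0.64 in KYSE30 and in the libraries labelled U138MG. *CPOX*, encoding coproporphyrinogen oxidase, fell by 0.39 in KYSE30, and *HMOX2* rose by 0.65 in the libraries labelled U138MG.

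**Figure D4:**
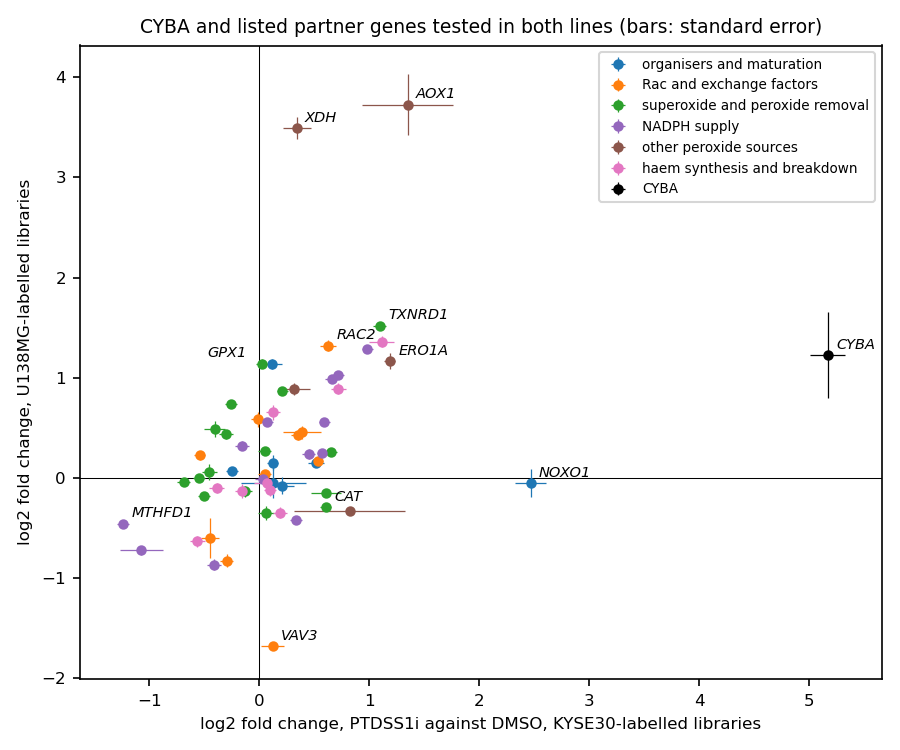
Log2 fold change of PTDSS1i against DMSO in KYSE30 (horizontal) and in the libraries labelled U138MG (vertical) for *CYBA* and the 60 listed partner genes tested in both, coloured by list, with bars for the standard error. *CYBA* (5.17 and 1.23) lies farthest to the right, *NOXO1* (2.47 and -0.05) lies on the KYSE30 axis, and *XDH* rises along the other axis.

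Over all 81 partner genes, 62 were tested in KYSE30, with 24 higher and 20 lower, against 30.1% and 32.0% of all tested genes. In the libraries labelled U138MG 66 were tested, with 33 higher and 17 lower, against 33.9% and 33.6%. Library total scaling gave 21 and 21 in KYSE30 and 29 and 25 in the libraries labelled U138MG. With a log2 fold change beyond 1 also required, 5 partner genes were higher and 2 lower in KYSE30, against 6.40% and 7.04% of all tested genes, and 12 and 1 in the libraries labelled U138MG, against 8.19% and 11.6%. Over all tested genes, 4927 were higher and 5238 lower in KYSE30 and 5989 and 5930 in the libraries labelled U138MG, which became 3932 and 6460, and 4533 and 7694, with library total scaling. That scaling moves the median of all genes by -0.10 in KYSE30 and by -0.15 in the libraries labelled U138MG.

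The genes whose pattern over the 12 libraries was most like that of *CYBA* were sought among the 13990 genes tested in both lines, by the root mean square difference of log2 CPM after centring each gene on its own mean. *ANGPTL4*, encoding a secreted inhibitor of lipoprotein lipase, was nearest with a difference of 0.863, and had log2 fold changes of 3.10 in KYSE30 and 2.00 in the libraries labelled U138MG. *OASL* and *ISG20*, interferon-stimulated genes, followed at 0.912 and 0.989, *SLC5A3*, a myo-inositol transporter gene, at 0.924, and *ABCA3*, a lipid transporter gene, at 0.948. The KYSE30 log2 fold changes of these 5 genes lay between 2.65 and 3.10. *DUOX1* and *DUOX2*, with means of 0.880 and 0.0860 CPM over the 12 libraries, were too low for this search.

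As p22phox is abundant in phagocytes, 8 leukocyte markers were read beside *CYBA*, of which the KYSE30 table lists 7. Their summed level in KYSE30 was between 8.73 and 9.15 CPM in DMSO and between 18.4 and 21.1 CPM in PTDSS1i. Mean levels in DMSO and PTDSS1i were 6.17 and 15.8 CPM for *CSF1R*, which made up most of the sum, 0.113 and 0.443 for *ITGAM*, 0.317 and 0.638 for *CD14*, and 0.172 and 0.563 for *LYZ*. They were 1.35 and 1.64 for *ITGB2*, 0.275 and 0.145 for *PTPRC*, and 0.516 and 0.0909 for *LCP1*, and *SPI1* is not listed. Several of these means rest on few counts. Over the KYSE30 libraries *ITGAM* had 1 to 12 counts, *CD14* 4 to 16, *LYZ* 2 to 14, *PTPRC* 2 to 8 and *LCP1* 1 to 13. For the U138MG-labelled libraries the sum was between 5.54 and 7.71 CPM in DMSO and between 12.7 and 15.1 in PTDSS1i. Mean levels there were 1.96 and 5.80 CPM for *LCP1*, 0.40 and 1.78 for *CD14*, 0.471 and 1.71 for *ITGB2*, 0.372 and 0.964 for *CSF1R*, and 3.55 and 3.37 for *ITGAM*, and *PTPRC*, *SPI1* and *LYZ* had at most 3 counts in a library. Of 4 thyrocyte markers, read because dual oxidases serve the thyroid, *TSHR* had at most 1 count. *PAX8* had 0.155 CPM in DMSO and 1.60 in PTDSS1i in KYSE30, and 0.803 and 7.21 in the libraries labelled U138MG. *TG* had 0.128 and 0.830 CPM in KYSE30, and 0.50 and 0.58 in the libraries labelled U138MG. *SLC5A5* had at most 3 counts in a KYSE30 library, and 0.447 and 0.780 CPM in the libraries labelled U138MG. The 3 endothelial markers summed to between 16.9 and 19.3 CPM in KYSE30 DMSO and between 41.0 and 48.1 in PTDSS1i. Most of it was *CDH5* at 17.7 and 43.2 CPM, while *VWF* had 0.172 and 0.634 CPM and *PECAM1* at most 2 counts. For the U138MG-labelled libraries the means in DMSO and PTDSS1i were 11.0 and 25.3 CPM for *CDH5* and 0.0324 and 1.21 for *PECAM1*. *VWF* went the other way there, with 10.7 and 2.15 CPM. The part of these markers in the results was not tested.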

How the data were processed

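RNA-seq libraries came from 12 cultures, 3 per line and treatment. The authors deposited raw counts of reads for each gene, with a table for each line. The submitters' processing notes name Trimmomatic, STAR, featureCounts and the build hg38, without versions, and the annotation and use of strand are not given in the sources used here. The TruSeq kit does not mark strand, so overlapping genes can share reads.

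Groups and replicate numbers came from the labels. The analysis used edgeR 4.0.16, limma 3.58.1 and DESeq2 1.42.0 under R 4.3.3, with matplotlib 3.10.9 under Python 3.11.15 for the figures. Genes were kept by filterByExpr (minimum count 10, minimum total count 15), scaled by TMM and tested within each line by edgeR's quasi-likelihood method with robust settings. P-values were adjusted after Benjamini and Hochberg over all tested genes, with a threshold of 0.05, and measure the spread between these cultures. The standard error is the log2 fold change divided by the root of the test statistic. An exact permutation test of 3 libraries against 3 cannot give a p under 0.1. The interaction of line and treatment was fitted over genes listed in both tables. Positions, exon lengths and overlaps came from GENCODE 29, which may not be the authors' annotation. Genes were named by rule: the members, the oxidase genes, neighbours within 20 kb, the 5 nearest patterns (prior count 2, for members averaging 1 CPM or more) and up to 4 genes of each other list with the largest changes among called genes averaging 5 CPM or more. The scripts were checked on simulated counts with known changes. Of 200 changed genes, edgeR recovered 197 in KYSE30 and 199 in the libraries labelled U138MG, with 8 and 21 false calls. Changes were planted only in genes above a minimum mean count, so the check does not cover members with few counts. Totals lay between 18800932 and 26514658 counts, and intervals cover counting error only. Replicates with the same number deviated together in KYSE30 (correlations of 0.224, 0.166 and 0.178 over 10365 genes), so a fit with the replicate block was read there. Some genes of these pathways are not reported here and are left out of the lists. The members and gene lists were chosen with earlier results of these data known. Alternatives were other scalings, filters, DESeq2, the block, a joint fit and each library left out.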

Additional observations from a re-analysis of the deposited data

Results flagged for a closer look

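The groups held 3 libraries each, too few to test single libraries as outliers. Of 39 named partner and neighbour genes, 28 changed differently in the lines, by edgeR's quasi-likelihood test of the interaction with Benjamini-Hochberg adjustment, a test that 49.9% of all 18405 genes passed. Many of these genes were named because they had a large called change in a line of these same data. Their share therefore cannot be set against that of all genes. Values are the log2 fold change in the libraries labelled U138MG minus that in KYSE30. Among organisers and maturation genes the difference was -2.56 for *NOXO1*, -0.40 for *SH3PXD2A*, 0.99 for *SH3PXD2B* and 0.28 for *POLDIP2*. Among the neighbours it was -0.87 for *MVD*, 0.32 for *ZC3H18* and 0.73 for *SORD*. The Rac group had -0.41 for *RAC1*, 0.66 for *RAC2*, 0.73 for *VAV2*, -1.85 for *VAV3*, -0.57 for *ARHGDIB* and 0.56 for *TIAM1*. Peroxide removal genes had 0.39 for *TXNRD1*, -0.44 for *PRDX5*, 0.60 for *PRDX6*, -0.94 for *CAT*, 1.08 for *GPX1* and 0.61 for *GPX4*. In NADPH supply the values were 0.74 for *MTHFD1*, 0.29 for *MTHFD2*, 0.26 for *ME1* and 0.27 for *PGD*. The remaining differences were 3.12 for *XDH*, 0.54 for *ERO1B*, -1.19 for *PXDN*, 0.24 for *CPOX* and 0.49 for *HMOX2*. *PXDN* had an adjusted p of 0.0222 in this edgeR test and had group means of 0.277 and 0.488 normalized CPM in KYSE30. Line and batch cannot be told apart. No test of the difference is given for *CYBA*, which was chosen by its KYSE30 rise, nor for *DUOX1* and *DUOX2*, which were listed with it.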

How the results depend on the processing

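The log2 fold change of *CYBA* in KYSE30 lay between 5.01 and 5.50 over its alternatives. In the libraries labelled U138MG it lay between 1.03 and 1.43 with a library left out. Its adjusted p ranged from 0.00217, with both lines fitted together, to 0.0809 over the edgeR and DESeq2 alternatives. In the filtered fits of this line the gene entered the test through the PTDSS1i libraries alone, so they say nothing of stability. In the joint fit it also entered through the KYSE30 libraries, by which it was chosen. Without a low-count filter the log2 fold change was 1.26 (edgeR adjusted p = 0.0262), on the same few counts. Requiring 10 counts in every library left no value for *CYBA* in either line, because it was then not tested. *DUOX1* stayed lower in the libraries labelled U138MG under every alternative, between -1.83 and -1.58. With a log2 fold change beyond 1 also required, 5 partner genes were higher and 2 lower in KYSE30, against 6.40% and 7.04% of all tested genes. In the libraries labelled U138MG they were 12 and 1, against 8.19% and 11.6%. Directions that turned belonged to genes that were not called: *NCF4* between -0.24 and 0.34 in KYSE30 and between -0.10 and 0.028 in the libraries labelled U138MG with a library left out, and in the latter *CYBB* between -0.74 and 0.11, *NOXO1* between -0.13 and 0.092, and *POLDIP2* at -0.085 and -0.083 with library total and upper-quartile scaling. In the libraries labelled U138MG, where replicate numbers did not pair the libraries (correlations of -0.038, 0.098 and 0.11), the replicate block gave *CYBA* 1.21 (adjusted p = 0.0247) and *DUOX1* -1.68, and 6019 genes higher and 5923 lower. In KYSE30 the block gave *CYBA* 5.17. Of the 16389 tested genes it called 5081 higher and 5377 lower, and of the 62 tested partner genes 26 and 20. In KYSE30 it changed the calls of *NOXA1* and of *ERO1B* (edgeR adjusted p = 0.0602 without it and 0.0483 with it), and of no other gene named above in either line. With a prior count of 0.5, 4 of the 5 genes nearest to *CYBA* in pattern were shared. With few counts, the KYSE30 ratio of *DUOX1* lay between 0.647 and 1.38 and that of *DUOX2* between 0.863 and 1.71 with a library left out.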
